A study of Mus musculus with 3 samples.

Results

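The Notch pathway genes of brain vessels are 10 named genes, the receptors Notch1, Notch3 and Notch4, the ligands Dll4, Jag1 and Jag2, and the targets Hes1, Hey1, Hey2 and Heyl. They were chosen by name, and transcript identifiers were joined to gene symbols, which found 10 of 10 among 29787 genes in the tables. All 10 were among the 16317 genes that passed a minimum level of 1 in any of the libraries. The mice were 3 months old, and the RNA of their brain vessels gave 3 sequencing libraries, 1 for each group. In the Cx43-deleted group (hGFAP-Cre/Cx43fl/fl, on a C57BL6-BALB/c background) the floxed connexin 43 gene was deleted by Cre from the human GFAP promoter, which is active in astrocytes and also in neural progenitors, so that neurons can carry the deletion as well. Wild-type (WT) mice of the C57BL6-BALB/c background and of the C57BL6 strain made up the remaining groups. No source used here gives the number of animals per library.

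Notch receptors are cleaved when a Delta or Jagged ligand on a neighbouring cell binds them, and the freed intracellular part joins the DNA-binding protein RBPJ to switch on Hes and Hey genes, which encode transcriptional repressors. In vessels, signalling from Dll4 through Notch1 and Notch4 restrains sprouting and sets arterial identity in the endothelium. Signalling from Jag1 through Notch3 keeps smooth muscle cells and pericytes, the mural cells of the vessel wall, in their mature state.

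The library totals were 54975610 reads (Cx43-deleted), 21170766 (C57BL6-BALB/c WT) and 24830975 (C57BL6 WT). A level is the number of reads on the most abundant transcript of a gene per 1000000 reads of the library after TMM scaling (CPM). The members had 1048 to 13521 reads in the Cx43-deleted library, 592 to 5284 in C57BL6-BALB/c WT and 690 to 6493 in C57BL6 WT. With 1 library per group there was no replicate and no test, so each difference is one between libraries, and intervals in brackets are exact 95% intervals that cover counting error only. The targeted gene, Gja1, was at 48.1 CPM in Cx43-deleted vessels, against 202 in C57BL6-BALB/c WT vessels and 201 in C57BL6 WT vessels. Endothelial markers were present in all 3 libraries, and none of 12 was at 0 reads. The 8 neuron markers summed to 2502, 2661 and 2114 CPM in the same order, and 8 ependyma and choroid plexus markers to 3518, 2640 and 6713. The vessel preparations thus also held RNA of other brain cells, and the second of these lists was highest in C57BL6 WT. The part of such cells in the member levels was not tested.

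In the Cx43-deleted library 9 of the 10 genes were lower than in both WT libraries, as were 35.6% of all measured genes, although Notch1 and Notch4 crossed 1 with median-of-ratios size factors. Jag2 was above both, as were 33.6% of all genes. For 7 of the 9 lower members (Notch3, Dll4, Jag1, Hes1, Hey1, Hey2 and Heyl) the counting interval lay below 1 in both comparisons. The share of all genes with such intervals was not computed, so this count has no background beside it. At these read numbers even the fold of 0.906 of Dll4 against C57BL6-BALB/c WT had an interval below 1. Heyl and Jag1 were lower by 1.5-fold or more against both, as were 2.00% of all genes. Counts of genes past 1.5-fold or 2-fold rest on ratios of CPM plus 0.5, while the folds printed for single genes are plain ratios, which lie further from 1 for low genes. No member was above both by as much, and 1.18% of all genes were. Both comparisons use the Cx43-deleted library and are not independent of each other.

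**Figure D1:**
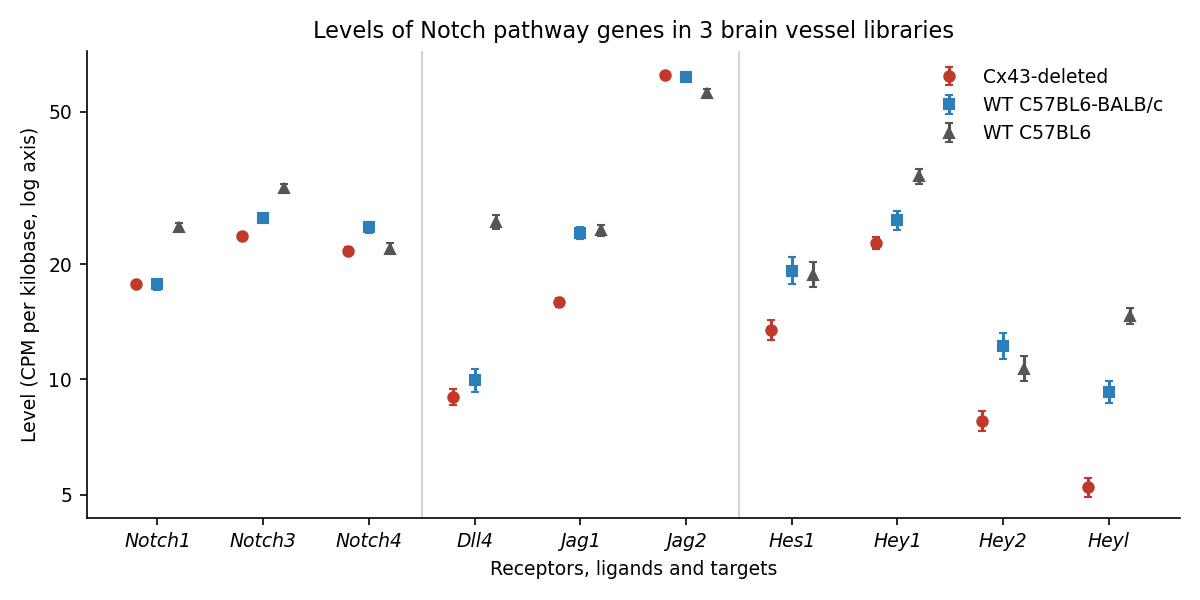
Level of each gene in CPM per kilobase of transcript (log axis) in the Cx43-deleted, C57BL6-BALB/c WT and C57BL6 WT libraries, with bars for the 95% counting interval. Heyl is the lowest gene of the Cx43-deleted library, at 5.23, and Jag2 is the highest of every library, between 55.7 and 62.3.

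Genes are ranked within a library only per kilobase of transcript here. On that scale Jag2 was the most abundant member in every library. It was at 62.3 CPM per kilobase in Cx43-deleted vessels, against 61.6 in C57BL6-BALB/c WT vessels and 55.7 in C57BL6 WT vessels. In the Cx43-deleted library it was followed by Notch3 at 23.7, Hey1 at 22.7 and Notch4 at 21.6, where Notch3 and Hey1, and Hey1 and Notch4, had overlapping counting intervals. Notch1 (17.7), Jag1 (15.9), Hes1 (13.4), Dll4 (9.01), Hey2 (7.80) and Heyl (5.23) came next, each separated from its neighbour. In C57BL6-BALB/c WT the order was Jag2, Notch3, Hey1, Notch4, Jag1, Hes1, Notch1, Hey2, Dll4 and Heyl. The intervals of the 4 genes from Notch3 to Jag1 overlapped from each to the next, as did those of Hes1 and Notch1 and those of Dll4 and Heyl. In C57BL6 WT, Dll4 had rank 4 at 25.7, not separated from Notch1 next to it, and the lowest gene was Hey2 at 10.7.

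The promoters of the target Hey2 and the ligands Dll4 and Jag1 are shown because the results below turn on these genes and because RBPJ is known to bind the word GTGGGAA. RefSeq promoter windows (GRCm38.p6) matched 7 of the 10 members, Notch1, Notch3, Notch4, Dll4, Jag1, Jag2 and Hey2. Only the bases before the annotated starts are printed, 5′ to 3′ on the strand of the gene, with capitals for a match on either strand to the RBPJ word GTGGGAA or to the N-box CACNAG, a site of Hes repressors. The E-box CACGTG was searched as well and not found in the 250-base windows of these 7 genes, and no matches overlapped each other. These windows end at RefSeq starts, which can differ from the GENCODE starts. For Jag2 the whole window lay after the GENCODE start, as did 124 bases of that of Jag1, 27 of Notch4 and 18 of Hey2.
Hey2 (chr10:30842802-30843033, minus strand): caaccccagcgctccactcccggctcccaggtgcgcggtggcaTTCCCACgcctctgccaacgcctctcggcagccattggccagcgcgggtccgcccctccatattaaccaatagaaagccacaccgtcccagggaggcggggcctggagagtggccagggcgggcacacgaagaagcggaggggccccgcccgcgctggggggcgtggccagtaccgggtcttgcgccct
Dll4 (chr2:119325534-119325783, plus strand): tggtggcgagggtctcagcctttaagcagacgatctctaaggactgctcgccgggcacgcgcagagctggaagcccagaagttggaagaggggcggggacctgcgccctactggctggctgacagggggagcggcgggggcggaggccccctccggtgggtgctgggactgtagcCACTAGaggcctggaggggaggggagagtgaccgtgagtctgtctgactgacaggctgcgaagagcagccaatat
Jag1 (chr2:137116645-137116770, minus strand): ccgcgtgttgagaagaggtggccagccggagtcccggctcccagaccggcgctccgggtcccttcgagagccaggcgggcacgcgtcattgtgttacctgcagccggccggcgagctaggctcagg

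The Hey2 window held 1 RBPJ word, at position −189 counted from the GENCODE start, where the printed stretch ends, and was the 1 window of the 7 that held it. Of all 32851 promoter windows of 250 bases, 5.42% held that word, 36.67% the N-box and 6.02% the E-box. The N-box was in the windows of Notch1, Notch3 and Dll4. A match is a run of letters only, and its presence or absence in so short a window says nothing of whether a factor binds.

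Among the receptors, Notch1 (ENSMUSG00000026923; GRCm38 chromosome 2, 26457903 to 26503822, minus strand) is the receptor of the endothelium that is also used by many other cells. It had 168 CPM in Cx43-deleted vessels, against 168 in C57BL6-BALB/c WT vessels and 237 in C57BL6 WT vessels. The libraries of the mixed background were thus alike, with a fold of 0.999 (0.961 to 1.04) that turned to 1.002 with median-of-ratios size factors, and both lay below C57BL6 WT. The Cx43-deleted library was 1.41-fold lower than C57BL6 WT (1.37 to 1.46). Of the exon bases of Notch1, 14.6% are shared with 0610009E02Rik and Gm13568 on the other strand, and the library kit does not keep strand, so reads of these genes cannot be told apart there.

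Notch3 (ENSMUSG00000038146; chromosome 17, 32120820 to 32166852, minus strand), the receptor of smooth muscle cells and pericytes, had 190 CPM in Cx43-deleted vessels, against 212 in C57BL6-BALB/c WT vessels and 254 in C57BL6 WT vessels. It was 1.11-fold lower than in C57BL6-BALB/c WT (1.07 to 1.15) and 1.34-fold lower than in C57BL6 WT (1.29 to 1.38). Against C57BL6-BALB/c WT, 25.7% of all genes had a lower ratio than Notch3. Antisense Gm17276 covers 6.09% of its exon bases.

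Notch4 (ENSMUSG00000015468; chromosome 17, 34564268 to 34588503, plus strand), a receptor largely restricted to endothelium, had 143 CPM in Cx43-deleted vessels, against 165 in C57BL6-BALB/c WT vessels and 144 in C57BL6 WT vessels. It was 1.15-fold lower than in C57BL6-BALB/c WT (1.11 to 1.20). Against C57BL6 WT the fold was 0.987, its interval of 0.949 to 1.03 included 1, and it turned to 1.005 with median-of-ratios size factors. Notch4 had 84.8 reads per 100 of Notch1 in the Cx43-deleted library (82.2 to 87.4), 97.8 in C57BL6-BALB/c WT (93.3 to 103) and 60.9 in C57BL6 WT (58.4 to 63.4), so Notch4 was scarcest beside Notch1 in C57BL6 WT. Such ratios within a library do not depend on scaling. They are of reads not corrected for transcript length, here and below, so they compare libraries and do not rank the paired genes. Notch2, the receptor outside the members, had 40.6 CPM in Cx43-deleted vessels, against 42.3 in C57BL6-BALB/c WT vessels and 38.8 in C57BL6 WT vessels, and both of its intervals against WT included 1.

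Among the ligands, Jag1 (ENSMUSG00000027276; chromosome 2, 137081456 to 137116644, minus strand), the ligand that vessel wall cells present to Notch3, had 89.1 CPM in Cx43-deleted vessels, against 135 in C57BL6-BALB/c WT vessels and 137 in C57BL6 WT vessels. The WT libraries were alike, with a fold of 0.984 (0.936 to 1.03), and the Cx43-deleted library lay below both. It was 1.52-fold lower than C57BL6-BALB/c WT (1.45 to 1.59) and 1.54-fold lower than C57BL6 WT (1.48 to 1.61). Of all genes, 3.51% had a lower ratio against C57BL6-BALB/c WT and 10.4% against C57BL6 WT.

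Dll4 (ENSMUSG00000027314; chromosome 2, 119325784 to 119335962, plus strand), the ligand of arterial endothelium and sprouting tip cells, had 33.8 CPM in Cx43-deleted vessels, against 37.3 in C57BL6-BALB/c WT vessels and 96.4 in C57BL6 WT vessels. Its high library was C57BL6 WT. C57BL6-BALB/c WT was 2.59-fold lower than C57BL6 WT (2.39 to 2.81), a difference with no deletion in it, and the Cx43-deleted library was 2.86-fold lower (2.69 to 3.04). Between the libraries of the mixed background Dll4 was 1.10-fold lower in the Cx43-deleted one (1.01 to 1.20). Antisense Gm14207 covers 5.71% of the exon bases of Dll4. Dll4 had 37.9 reads per 100 of Jag1 in the Cx43-deleted library (35.9 to 40.02), 27.6 in C57BL6-BALB/c WT (25.4 to 29.8) and 70.2 in C57BL6 WT (66.7 to 74.0), so the balance of the 2 ligands differed between all 3 libraries by more than counting error.

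Jag2 (ENSMUSG00000002799; chromosome 12, 112907819 to 112929776, minus strand), a second Jagged ligand, had 253 CPM in Cx43-deleted vessels, against 250 in C57BL6-BALB/c WT vessels and 226 in C57BL6 WT vessels. It was the one member above both WT libraries, with a fold of 1.01 against C57BL6-BALB/c WT whose interval of 0.980 to 1.04 included 1 and which turned to 0.985 under the library total alone. Against C57BL6 WT it was 1.12-fold higher (1.08 to 1.15). With Jag2 level and Jag1 low, Jag2 had 2.84 reads per read of Jag1 in the Cx43-deleted library (2.75 to 2.93), against 1.85 in C57BL6-BALB/c WT (1.77 to 1.94) and 1.65 in C57BL6 WT (1.58 to 1.72). The deposited transcript of Jag2 is 4054 bases long and its exons in the later annotation 5106 bases, so its level per kilobase holds for the deposited model.

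Among the target genes, Heyl (ENSMUSG00000032744; chromosome 4, 123233556 to 123249875, plus strand), a Hey-type repressor found chiefly in mural cells downstream of Notch3, was the member furthest below both WT libraries. It had 23.7 CPM in Cx43-deleted vessels, against 42.2 in C57BL6-BALB/c WT vessels and 66.4 in C57BL6 WT vessels, which makes 3 separate levels. It was 1.78-fold lower than in C57BL6-BALB/c WT (1.63 to 1.94), where 1.64% of all genes had a lower ratio, and 2.80-fold lower than in C57BL6 WT (2.60 to 3.01), where 0.613% had. The WT libraries differed too, C57BL6-BALB/c WT being 1.57-fold lower than C57BL6 WT (1.45 to 1.71). Relative to the receptor, Heyl had 12.5 reads per 100 of Notch3 in the Cx43-deleted library (11.7 to 13.2), 19.9 in C57BL6-BALB/c WT (18.5 to 21.4) and 26.1 in C57BL6 WT (24.7 to 27.6).

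Hey2 (ENSMUSG00000019789; chromosome 10, 30832359 to 30842801, minus strand), a repressor of arterial endothelium and smooth muscle, had 19.7 CPM in Cx43-deleted vessels, against 31.0 in C57BL6-BALB/c WT vessels and 27.0 in C57BL6 WT vessels. The Cx43-deleted library was lowest, 1.57-fold below C57BL6-BALB/c WT (1.42 to 1.73) and 1.37-fold below C57BL6 WT (1.24 to 1.51). The WT libraries were closer to each other, at a fold of 1.15 (1.03 to 1.28).

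Hes1 (ENSMUSG00000022528; chromosome 16, 30065340 to 30067796, plus strand), a target gene shared by vessel cells and glia, had 19.6 CPM in Cx43-deleted vessels, against 28.0 in C57BL6-BALB/c WT vessels and 27.3 in C57BL6 WT vessels. As for Jag1, the WT libraries did not differ beyond counting error, at a fold of 1.02 (0.916 to 1.14). The Cx43-deleted library was 1.43-fold lower than C57BL6-BALB/c WT (1.29 to 1.58) and 1.40-fold lower than C57BL6 WT (1.27 to 1.54).

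Hey1 (ENSMUSG00000040289; chromosome 3, 8663359 to 8667256, minus strand), a repressor of arterial endothelium, had 49.96 CPM in Cx43-deleted vessels, against 57.3 in C57BL6-BALB/c WT vessels and 74.7 in C57BL6 WT vessels. It was 1.15-fold lower than in C57BL6-BALB/c WT (1.07 to 1.23) and 1.495-fold lower than in C57BL6 WT (1.41 to 1.59), just short of 1.5-fold. Per 100 reads of Hey1, Heyl had 47.5 in the Cx43-deleted library (44.4 to 50.8), 73.6 in C57BL6-BALB/c WT (67.4 to 80.3) and 88.9 in C57BL6 WT (83.2 to 94.9). The Hey genes were therefore not lower in equal measure.

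**Figure D2:**
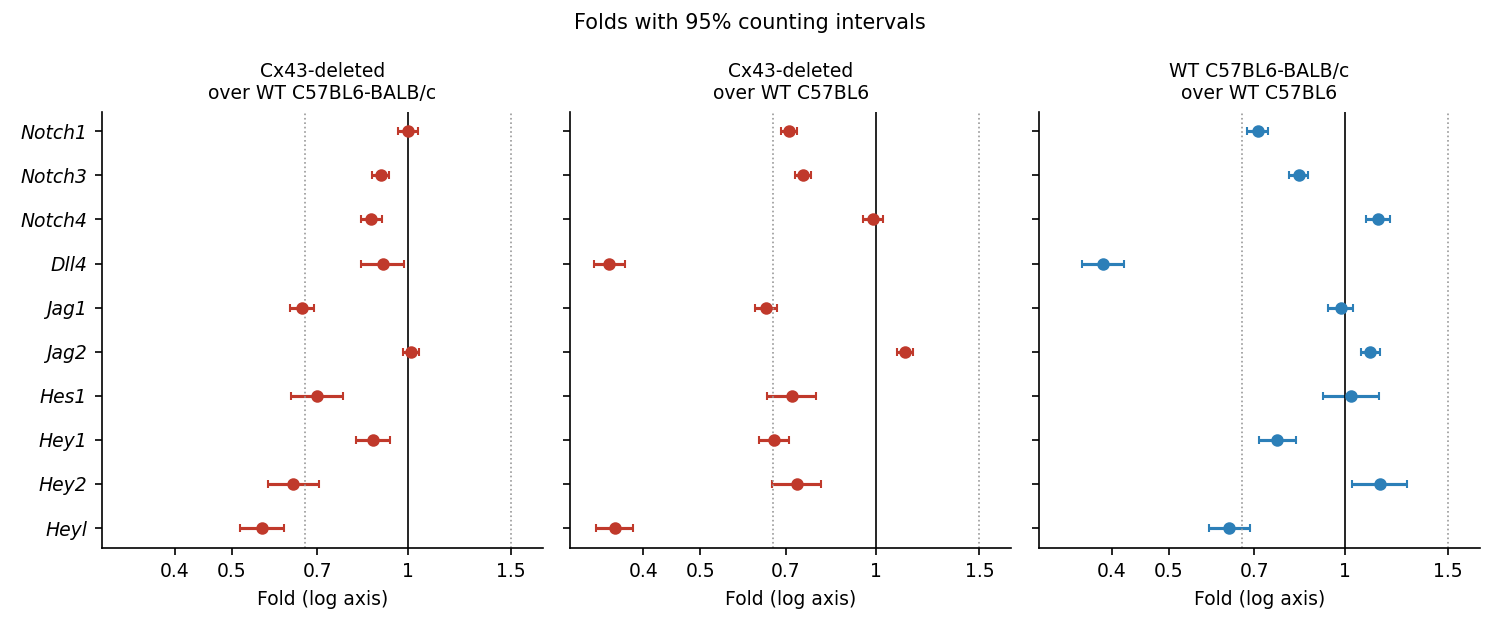
Fold of each gene (log axis) in the Cx43-deleted library over C57BL6-BALB/c WT, in the Cx43-deleted library over C57BL6 WT, and in C57BL6-BALB/c WT over C57BL6 WT, with 95% counting intervals and dotted lines at 1.5-fold either way. Heyl is low in all 3 panels (0.563, 0.357 and 0.635), Dll4 in the panels over C57BL6 WT (0.350 and 0.386), and Jag1 in the panels of the Cx43-deleted library (0.659 and 0.649).

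By role, the 4 target genes summed to 113 CPM in Cx43-deleted vessels, against 158 in C57BL6-BALB/c WT vessels and 195 in C57BL6 WT vessels. The 3 receptors summed to 501, 545 and 636 CPM in the same libraries, and the 3 ligands to 376, 422 and 460. All 3 sums had the same order of libraries, but single members did not all share it. Jag2 ran the other way, with the libraries of the mixed background within counting error. Notch4, Hey2 and Hes1 were higher in C57BL6-BALB/c WT than in C57BL6 WT, Hes1 within counting error.

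Against C57BL6-BALB/c WT, the library of the same background, 3 of 10 members (Heyl, Hey2 and Jag1) were lower by 1.5-fold or more, as were 3.71% of all genes, and 0 were higher by as much, as were 2.81%. The median log2 ratio of the members was −0.20, and that of all genes 0.0033. Over marker lists taken up below it was −0.17 (endothelial), −0.44 (arterial endothelial), −0.83 (smooth muscle) and 0.04 (pericyte). Against C57BL6 WT, 3 of 10 (Dll4, Heyl and Jag1) were lower by 1.5-fold or more, as were 11.8% of all genes, and 0 were higher, as were 8.59%. The median was −0.48, against −0.03 over all genes. The C57BL6-BALB/c WT library over the C57BL6 WT library, which shows what may differ with no deletion, had 2 of 10 members lower by 1.5-fold or more (Dll4 and Heyl), as were 8.45% of all genes, and 0 higher, as were 6.13%. Its median was −0.14, against −0.03 over all genes. Over the marker lists it was −0.70 (endothelial), −0.38 (arterial endothelial), 0.45 (smooth muscle) and −0.70 (pericyte). At 2-fold, 0 members were lower against C57BL6-BALB/c WT (0.919% of all genes) and 0 higher (0.913%). Against C57BL6 WT, 2 members (Dll4 and Heyl) were lower by 2-fold (2.59%) and 0 higher (1.40%). Between the WT libraries 1 member, Dll4, was lower by 2-fold in C57BL6-BALB/c WT (1.80%) and 0 were higher (1.05%). Of any size, 9 members were lower and 1 higher against C57BL6-BALB/c WT (49.4% and 50.6% of all genes), and 9 lower and 1 higher against C57BL6 WT (52.7% and 47.3%). Between the WT libraries 6 were lower and 4 higher in C57BL6-BALB/c WT (53.2% and 46.8%).

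**Figure D3:**
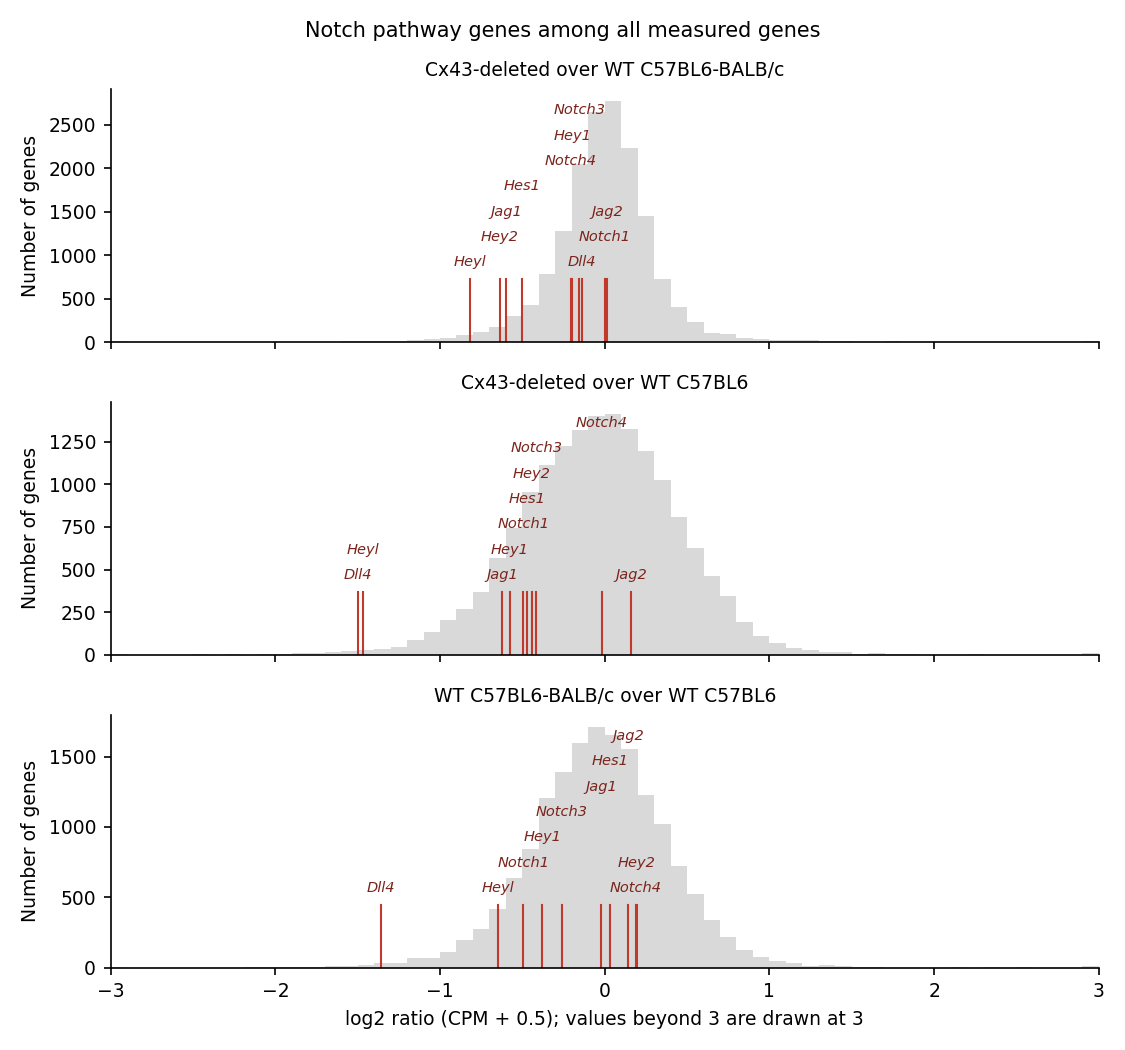
Number of genes by log2 ratio (CPM plus 0.5) over the 16317 measured genes, with red lines for the 10 Notch pathway genes, in the 3 comparisons; genes beyond −3 or 3 are in the end bars. Against C57BL6-BALB/c WT the lines run from −0.82 (Heyl) to 0.02 (Jag2), against C57BL6 WT from −1.50 (Dll4) to 0.16 (Jag2), and between the WT libraries from −1.36 (Dll4) to 0.19 (Hey2).

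The rest of the pathway was taken from a list of 68 genes, 65 of which reached a level of 1 in at least 1 library. Against C57BL6-BALB/c WT, 1 of the 65 was lower by 1.5-fold or more, as were 3.71% of all genes, and 0 were higher, as were 2.81%. That gene was Mfap5, named after its values were seen. It had 24 reads in Cx43-deleted vessels, against 23 in C57BL6-BALB/c WT vessels and 18 in C57BL6 WT vessels, or 0.449, 1.09 and 0.705 CPM. Mfap5 passed the minimum level of 1 only through C57BL6-BALB/c WT, the library where it was high. Its count as lower against that library is therefore not independent of the filter. Against C57BL6 WT, 5 of the 65 were lower, as were 11.8% of all genes, and 6 higher, as were 8.59%. On plain ratios, a setting added after the data were seen, 2 were lower (Mfap5 and Aph1b) and 2 higher (Hes5 and Hes7) against C57BL6-BALB/c WT, and 6 lower and 7 higher against C57BL6 WT. The counts on plain ratios have no share of all genes beside them. Hes7 had 76 reads in Cx43-deleted vessels, against 20 in C57BL6-BALB/c WT vessels and 40 in C57BL6 WT vessels, and its interval against C57BL6-BALB/c WT (0.908 to 2.60) included 1. The Cx43-deleted library was below both WT libraries for 20 of the 65 and above both for 25, beside 35.6% and 33.6% of all genes. The median log2 ratio of the 65 was 0.04 against C57BL6-BALB/c WT and 0.0076 against C57BL6 WT.

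Of 8 measured receptors and ligands outside the members, 3 lay above both WT libraries and 3 below them. Beside this and the like counts that follow, 33.6% of all genes lay above both and 35.6% below both. Dlk2, a Delta-like protein, had 151 CPM in Cx43-deleted vessels, against 123 in C57BL6-BALB/c WT vessels and 84.9 in C57BL6 WT vessels. Mfap2, a microfibril protein that binds Jagged ligands, had 14.9, 10.2 and 10.7 CPM, and Dner, a neuronal ligand, had 56.96, 71.7 and 73.8 in the same order.

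Of 6 genes of receptor maturation and glycosylation, 1 (Mfng) was below both WT libraries and 3 above both, and of 9 genes of receptor cleavage 2 were below both and 3 above both. Mfng, a fringe glycosyltransferase that tunes which ligand a Notch receptor answers, had 24.6 CPM in Cx43-deleted vessels, against 35.9 in C57BL6-BALB/c WT vessels and 41.2 in C57BL6 WT vessels. The other fringe genes were above both WT libraries, with Lfng at 52.0, 45.9 and 40.96 CPM and Rfng at 156, 131 and 103 in the same order. Aph1b, a subunit of the gamma-secretase that frees the intracellular part, had 15.3 CPM in Cx43-deleted vessels, against 23.1 in C57BL6-BALB/c WT vessels and 23.8 in C57BL6 WT vessels. Adam17, a metalloprotease that can shed Notch receptors, had 84.3, 74.7 and 81.9 CPM in the same order.

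Of 14 genes of ubiquitin ligases and trafficking, 6 lay above both WT libraries and 2 below them. Dtx3, a Deltex-type ubiquitin ligase, had 631 CPM in Cx43-deleted vessels, against 491 in C57BL6-BALB/c WT vessels and 385 in C57BL6 WT vessels, and Numbl, a Numb-like adaptor, had 219, 173 and 131 in the same order. Dtx4, another Deltex-type ligase, lay on the other side, at 56.2, 76.3 and 76.3 CPM.

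Of 19 genes of the nuclear complex and its corepressors, 7 lay above both WT libraries and 7 below them. Hdac1, a histone deacetylase, had 8.08 CPM in Cx43-deleted vessels, against 5.77 in C57BL6-BALB/c WT vessels and 6.30 in C57BL6 WT vessels, and was above both at folds of 1.40 (1.14 to 1.73) and 1.28 (1.07 to 1.54). Tle3, a Groucho-type corepressor, had 57.1, 67.0 and 80.9 CPM in the same order. Rbpj itself had 16.4 CPM in Cx43-deleted vessels, against 19.9 in C57BL6-BALB/c WT vessels and 23.3 in C57BL6 WT vessels. The fold of Rbpj was 0.824 (0.732 to 0.927) against C57BL6-BALB/c WT and 0.704 (0.633 to 0.782) against C57BL6 WT. Of 9 measured target genes outside the members, 3 lay above both WT libraries and 5 below them. Hes5, a Notch target of neural progenitors and astroglia, was above both WT libraries, with 7.61 CPM in Cx43-deleted vessels, against 5.06 in C57BL6-BALB/c WT vessels and 5.05 in C57BL6 WT vessels. Its folds were 1.504 (1.21 to 1.88) and 1.51 (1.23 to 1.85). Hes1 and Hes5 therefore lay on opposite sides of both WT libraries.

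Nrarp, a target that feeds back on Notch signalling in endothelium, had 21.7 CPM in Cx43-deleted vessels, against 25.6 in C57BL6-BALB/c WT vessels and 60.2 in C57BL6 WT vessels, and was the 1 gene of the 65 that was lower by 1.5-fold or more in C57BL6-BALB/c WT than in C57BL6 WT with 0.5 CPM added. Of all genes, 8.45% were lower by as much between these libraries. On plain ratios Hes7 was a further gene of the 65, at a fold of 0.604 whose interval reached 1.06. Nrarp was thus high in the same library as Dll4. Id2, an inhibitor of bHLH factors, had 24.2 CPM in Cx43-deleted vessels, against 33.1 in C57BL6-BALB/c WT vessels and 45.0 in C57BL6 WT vessels.

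Vessel wall markers differed between these libraries as well, and with bulk RNA fewer cells of a type and less RNA per cell cannot be told apart. The marker counts here and below stand beside these shares. Of all genes, 49.4% were lower in the Cx43-deleted library than in C57BL6-BALB/c WT and 52.7% lower than in C57BL6 WT. Of 12 smooth muscle markers, 12 were lower in the Cx43-deleted library than in C57BL6-BALB/c WT and 10 lower than in C57BL6 WT, with summed levels of 1974 CPM in Cx43-deleted vessels, against 3396 in C57BL6-BALB/c WT vessels and 2499 in C57BL6 WT vessels. Of 10 pericyte markers, 4 were lower than in C57BL6-BALB/c WT and 10 lower than in C57BL6 WT, with sums of 1961, 1897 and 3086 CPM in the same order. None of these markers was at 0 reads. Cnn1, calponin of contractile smooth muscle, had 18.5, 50.5 and 28.0 CPM, and Cspg4, the mural proteoglycan NG2, had 56.3, 110 and 99.6. Cspg4 was the 1 pericyte marker lower than in C57BL6-BALB/c WT by 1.5-fold or more (3.71% of all genes), and 6 of the 10 were higher than there (50.6%). The part of mural cell content in the levels of Notch3, Jag1, Hey2 and Heyl was not tested.

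Set against these markers within each library, Heyl had 12.02 reads per 1000 reads of the smooth muscle list in Cx43-deleted vessels, against 12.4 in C57BL6-BALB/c WT vessels and 26.6 in C57BL6 WT vessels. Per 1000 reads of the pericyte list it had 12.1, 22.2 and 21.5. On the smooth muscle scale Heyl was thus close between the libraries of the mixed background, and on the pericyte scale close between the WT libraries. Jag1 had 45.1 reads per 1000 of the smooth muscle list in Cx43-deleted vessels, against 39.8 in C57BL6-BALB/c WT vessels and 54.9 in C57BL6 WT vessels, so that it was not lowest in the Cx43-deleted library on that scale. Hey2 per read of the same list was 1.10 times its value in C57BL6-BALB/c WT and 0.925 times that in C57BL6 WT. Notch3 had 96.4 reads per 1000 of the smooth muscle list in Cx43-deleted vessels, against 62.4 in C57BL6-BALB/c WT vessels and 102 in C57BL6 WT vessels.

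Of 12 endothelial markers, 10 were lower in the Cx43-deleted library than in C57BL6-BALB/c WT and 11 lower than in C57BL6 WT. Their summed levels were 4481 CPM in Cx43-deleted vessels, against 4044 in C57BL6-BALB/c WT vessels and 6482 in C57BL6 WT vessels. Slc2a1, the glucose transporter of the blood-brain barrier, made up 2121, 1260 and 1672 CPM of these sums and was the 1 endothelial marker above both WT libraries. All 12 arterial endothelial markers were lower than in both WT libraries (35.6% of all genes), with sums of 884, 1172 and 1501 CPM and none at 0 reads. Among them were Fbln5, a matrix protein of elastic vessels, at 74.0 CPM in Cx43-deleted vessels, against 154 in C57BL6-BALB/c WT vessels and 151 in C57BL6 WT vessels, and Gja5, the connexin of arterial endothelium, at 15.6, 32.1 and 30.9. Per 1000 reads of the arterial list Hey1 had 56.5, 48.9 and 49.8 reads in the same order, so it was highest in the Cx43-deleted library. Hey2 had 22.3, 26.4 and 18.0 on that scale, and Dll4 had 38.2, 31.8 and 64.3. Per 1000 reads of the endothelial list, Dll4 had 7.53 reads in Cx43-deleted vessels, against 9.21 in C57BL6-BALB/c WT vessels and 14.9 in C57BL6 WT vessels, so its high value in C57BL6 WT was also present on that scale. Slc2a1 was 47.3% of that list in Cx43-deleted vessels, against 31.2% in C57BL6-BALB/c WT vessels and 25.8% in C57BL6 WT vessels. Without it Dll4 had 14.3, 13.4 and 20.1 reads per 1000 in the same order, so C57BL6 WT stayed highest but the order of the libraries of the mixed background turned. Per 1000 reads of the whole list Notch1 had 37.5, 41.6 and 36.6, and without Slc2a1 it had 71.2, 60.4 and 49.3, so C57BL6 WT was lowest either way while the other order turned. The part of endothelial content in these levels was not tested.

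Astrocytes also express Hes1 and Jag1. Of 10 astrocyte markers, 6 were lower in the Cx43-deleted library than in C57BL6-BALB/c WT and 8 lower than in C57BL6 WT, with sums of 1704 CPM in Cx43-deleted vessels, against 1910 in C57BL6-BALB/c WT vessels and 2037 in C57BL6 WT vessels, and none was at 0 reads. Per 1000 reads of that list, Hes1 had 11.5 reads in Cx43-deleted vessels, against 14.7 in C57BL6-BALB/c WT vessels and 13.4 in C57BL6 WT vessels, and Jag1 had 52.3, 70.7 and 67.4. Both were lowest in the Cx43-deleted library on that scale, unlike Jag1 on the smooth muscle scale. The part of astrocyte content was not tested.

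**Figure D4:**
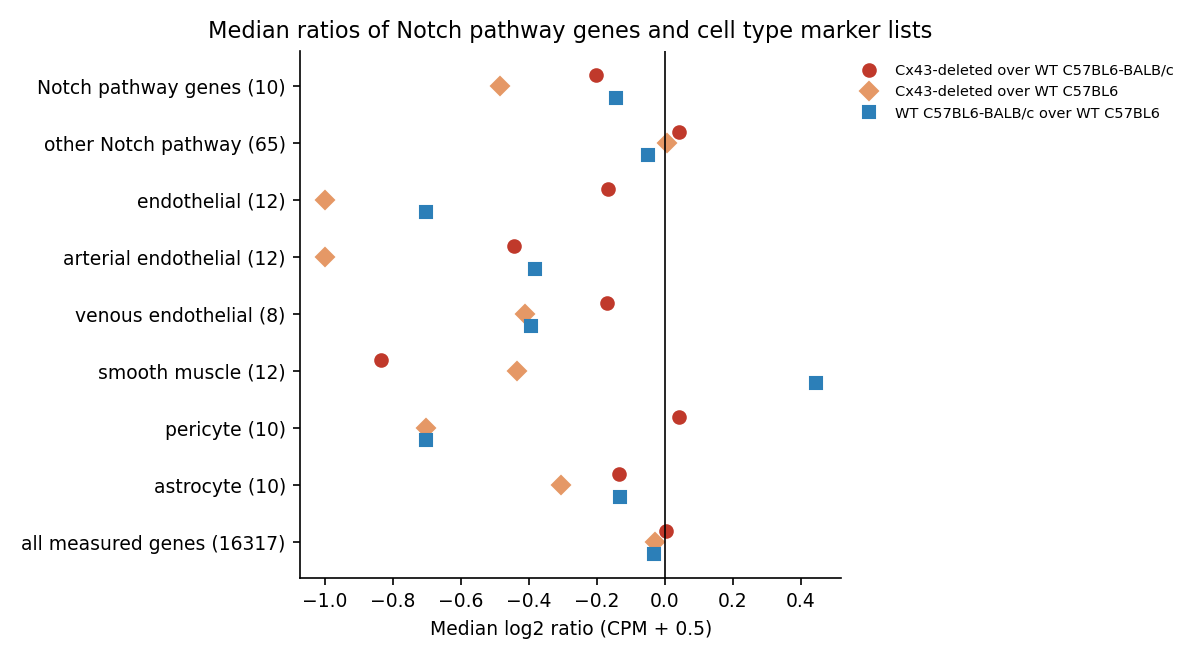
Median log2 ratio (CPM plus 0.5) of the Notch pathway genes, the other pathway genes, 6 marker lists and all measured genes, with the number of measured genes in brackets, for the 3 comparisons. The Notch pathway genes lie at −0.20, −0.48 and −0.14, the smooth muscle list at −0.83, −0.43 and 0.45, and the pericyte list at 0.04, −0.70 and −0.70.

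Reads covered nearly the whole of each member. The share of transcript bases with at least 1 read ran from 93.3% (Heyl) to 100% in the Cx43-deleted library, from 91.8% in C57BL6-BALB/c WT and from 92.7% in C57BL6 WT, and the Cx43-deleted library was the deepest. Shorter annotated transcripts overlap the long one, so their reads were set against its reads. They may also hold bases outside it, such as introns, so they show only roughly where along a gene the reads fell. A transcript near the 3′ end of Notch4, of the nonsense-mediated decay type, held 14.7 reads per 100 of the long transcript in the Cx43-deleted library (13.9 to 15.5), 14.8 in C57BL6-BALB/c WT (13.6 to 16.0) and 14.7 in C57BL6 WT (13.6 to 15.9). One near its 5′ end held 2.47 (2.13 to 2.84), 3.16 (2.60 to 3.80) and 2.71 (2.21 to 3.29). For Jag1, a transcript near the 3′ end that retains an intron held 35.4 (34.02 to 36.8), 34.7 (32.9 to 36.5) and 31.9 (30.4 to 33.5), and its reads may include intron reads. Reads on these shorter transcripts did not all keep the same proportion in the 3 libraries. The Jag1 value was lower in C57BL6 WT than in the Cx43-deleted library with intervals apart, while the intervals of the WT libraries overlapped. A Notch4 transcript nearer the 3′ end than the one above held 2.73 (2.37 to 3.12) in the Cx43-deleted library, 1.81 (1.39 to 2.31) in C57BL6-BALB/c WT and 2.36 (1.89 to 2.90) in C57BL6 WT, and the last of them 5.51 (5.01 to 6.04), 4.31 (3.66 to 5.04) and 4.96 (4.28 to 5.71) in the same order. The first of these was higher in the Cx43-deleted library than in C57BL6-BALB/c WT with intervals apart, opposite to the level of the whole gene.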

How the data were processed

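Brain vessel RNA (polyA+, TruSeq RNA v2, per the labels' protocols) gave 1 library per group. The authors deposited whole-number read counts for 82813 Ensembl transcripts, not normalised, per the file headers. The deposited tables also list a fraction for every transcript, and count divided by fraction gave the library totals. The submitters' processing notes name CASAVA 1.8.2, Bowtie and mm10. How reads were counted, on which annotation, and what was done with reads of many matches is not stated there. Counts sum to 2.45 to 2.55 library totals, so reads on overlapping transcripts entered more than 1 row. Sums over transcripts would count reads repeatedly, and the most abundant transcript of each gene, by its mean share over the libraries, was used.

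Identifiers were matched to GENCODE M21 (GRCm38), 69375 of 82813 (83.8%), and 213 on another chromosome were left out. Deposited coordinates are of an older build (197054592 on chromosome 1, beyond 195323493 in GENCODE) and were not used. Symbols of lists were all found, 1 under an older name. Levels were scaled by library total and TMM (edgeR 4.0.16, R 4.3.3), with factors of 0.973, 0.999 and 1.03. DESeq2 1.42.0 gave median-of-ratios factors as an alternative. Log2 ratios use a pseudocount of 0.5 CPM, which understates ratios of low genes. Floors of 3 reads are 0.0561, 0.142 and 0.117 CPM. Intervals are exact binomial or Poisson (Python 3.11.15, scipy 1.17.1). No test was possible and no p-value is given. The steps were tested on simulated counts. The promoter windows printed exclude bases after any annotated start.

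Genes named are the members, Gja1 and, of each list, the 3 with at least 5 CPM in any library that lay furthest above or below both WT libraries. Of the pathway genes so chosen, 1 is not reported here. Of the marker lists only some of these are printed, a choice made after their values were seen, as was the naming of Notch2, Slc2a1, Mfap5 and Hes7. Ratios without a pseudocount, and marker sums without the most abundant marker, were added after seeing the data. The members, lists and tests were chosen with earlier results of these data known.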

Additional observations from a re-analysis of the deposited data

How the results depend on the processing

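Over the alternatives run (pseudocounts of 0.1 and 1, no filter and a filter of 5 CPM, library total alone, median-of-ratios factors, sums over transcripts, the longest transcript, 2-fold), the member medians kept their direction, at −0.24 to −0.19 against C57BL6-BALB/c WT and −0.56 to −0.46 against C57BL6 WT. The count of members below both WT libraries was 7 with median-of-ratios factors, since Notch1 and Notch4 crossed 1. Members lower than in C57BL6 WT by 1.5-fold or more numbered 4, against 3 in the report, with the library total alone and with sums over transcripts. Hey1 was then at folds of 0.633 and 0.663. With the library total alone, 0 members were above both WT libraries, since Jag2 crossed 1 against C57BL6-BALB/c WT, and 2 other pathway genes were lower than in C57BL6-BALB/c WT by 1.5-fold or more. That count was 2 with a pseudocount of 0.1 and 0 with a pseudocount of 1, a minimum level of 5, the longest transcript or 2-fold, against 1 (Mfap5) in the report. At 2-fold the members lower than in C57BL6-BALB/c WT numbered 0, and 1 member was lower in C57BL6-BALB/c WT than in C57BL6 WT. Other pathway genes past 2-fold against C57BL6 WT numbered 0 higher and 1 lower, and 0 were higher in C57BL6-BALB/c WT than in C57BL6 WT. With sums over transcripts or the longest transcript, 1 other pathway gene was higher than in C57BL6-BALB/c WT and 2 were lower in C57BL6-BALB/c WT than in C57BL6 WT, and with a pseudocount of 0.1 the lower ones also numbered 2. Without a pseudocount, added after seeing the data, member counts did not change, and other pathway genes numbered 2 higher and 2 lower against C57BL6-BALB/c WT and 2 lower in C57BL6-BALB/c WT than in C57BL6 WT. Without the most abundant marker of each list, also added then, the orders printed per 1000 smooth muscle, pericyte, arterial endothelial and astrocyte reads stayed as they were. Those of Dll4 and Notch1 per 1000 reads of the endothelial list changed. No paired analysis was possible because each group has 1 library, and for the same reason no library could be left out. The variation between animals is not known from these data, and counting intervals do not cover it.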
